A study of Mus musculus with 13 samples.

Results

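Membrane excitability was described here through 6 genes of skeletal muscle ion channels, taken by symbol from the 17924 genes of the deposited tables and compared across muscles of mdm mice. The 6 were Clcn1, Scn4a, Scn4b, Kcnj2, Kcnj11 and Kcnn3, and all were found and passed the filter on low counts. RNA was sequenced from whole extensor digitorum longus (EDL, 5 libraries), psoas (5 libraries) and soleus (3 libraries). All 13 libraries came from mice of genotype mdm, which carry a deletion in the titin gene (Ttn) and were bred in a colony that heterozygotes of strain B6C3Fe a/a-Ttn mdm/J founded. The EDL mice were 38 to 42 days old, the psoas mice 29 to 42 days and the soleus mice 33 to 38 days. No treatment was given in the labels, and wild-type libraries were not analysed here, so each difference below is between muscles of mdm mice and not between genotypes. The muscles came from mice killed for other experiments, the labels do not say which mouse gave which muscle, and some libraries may share a mouse. EDL and psoas replicates 1 differ in the age of the mouse (38 and 29 days) and so do not share a mouse. Each soleus library likewise differs in age from the EDL and the psoas library of its number.

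A muscle fibre contracts after an action potential has spread along its membrane and into its transverse tubules. Voltage-gated sodium channels start that potential, and chloride and inward-rectifier potassium channels hold the membrane near its resting potential and bring it back there. Mutations of several of these channels in people cause myotonia, in which fibres fire too easily, or periodic paralysis, in which they stop firing. Muscles that lose their nerve are known to alter their set of membrane channels, and small-conductance potassium channels appear in such fibres.

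The 13 libraries held between 9114176 and 48835209 counted reads. Markers of fibre types went with the muscle labels: the summed normalized count of 8 slow fibre markers was 350050 to 414997 in soleus against 11411 to 66549 in the other muscles, and that of 8 fast fibre markers was 721154 to 1743964 in EDL, 152359 to 355896 in psoas and 114834 to 149073 in soleus. Each library also carries a code under the label condition (T1 and T3 to T6), whose meaning the labels do not give. The 5 libraries of code T6 (replicates 4 and 5 of EDL and of psoas, and replicate 3 of soleus) stood apart for several of the genes below, so psoas values were also compared with EDL values within codes and without T6. Codes T4 and T5 each hold 1 EDL and 1 psoas library, so a difference within them is between single libraries. Code T6 holds 2 of each. Psoas held more signal of nerve and serosa than EDL, with a summed count of 2232 to 18661 against 509.7 to 1313 for 5 Schwann cell and axon markers and of 259.4 to 1123 against 41.81 to 121.3 for 6 mesothelium markers. Soleus held more signal of fat, with a summed count of 29694 to 35766 for 6 adipocyte markers against 6460 to 14481 in EDL and 7281 to 24273 in psoas. Of the nerve and serosa markers Sox10, Upk3b and Wt1 were at 0 in at least 1 EDL library, Bnc1 was at 0 in every EDL library, and none was at 0 in psoas.

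The promoters of 5 of the 6 genes were found in RefSeq on GRCm38.p6, each from 250 bases before to 50 bases after a start that RefSeq gives, and Kcnj11 had no entry. That start is the GENCODE start of the gene for Clcn1, Kcnj2 and Kcnn3, lies 229 bases downstream of it for Scn4b, and lies 3898 bases downstream of it, inside the gene, for Scn4a. Those of Clcn1 (chr6:42286435-42286734, + strand), Kcnj2 (chr11:111065914-111066213, + strand) and Scn4b (chr9:45138374-45138673, + strand) are printed because these 3 genes had no psoas library as high as any EDL library. Capitals mark matches to 5 motifs searched on both strands: the E-box CANNTG that myogenic and clock factors bind, the MEF2 site, the CArG box, TATAAA and the GC box GGGCGG.
Clcn1: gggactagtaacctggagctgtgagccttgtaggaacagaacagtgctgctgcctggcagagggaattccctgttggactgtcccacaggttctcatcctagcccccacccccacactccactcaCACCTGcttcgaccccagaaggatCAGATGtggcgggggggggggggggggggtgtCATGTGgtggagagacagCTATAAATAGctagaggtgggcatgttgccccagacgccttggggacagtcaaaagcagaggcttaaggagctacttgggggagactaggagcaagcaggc
Kcnj2: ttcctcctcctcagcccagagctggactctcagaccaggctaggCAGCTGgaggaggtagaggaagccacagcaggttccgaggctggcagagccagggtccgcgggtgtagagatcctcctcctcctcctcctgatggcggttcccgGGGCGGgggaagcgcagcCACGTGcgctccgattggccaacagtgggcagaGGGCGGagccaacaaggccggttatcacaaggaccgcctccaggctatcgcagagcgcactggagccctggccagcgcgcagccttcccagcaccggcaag
Scn4b: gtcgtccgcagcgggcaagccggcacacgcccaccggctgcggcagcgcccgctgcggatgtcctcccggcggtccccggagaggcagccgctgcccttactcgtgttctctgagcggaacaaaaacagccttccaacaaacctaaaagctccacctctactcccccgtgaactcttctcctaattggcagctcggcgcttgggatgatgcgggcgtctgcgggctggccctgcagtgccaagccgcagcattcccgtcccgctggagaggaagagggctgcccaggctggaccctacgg
The Clcn1 window held 3 E-boxes, starting at -125, -101 and -69 from the RefSeq start, and a MEF2 match that contains the TATAAA match. The Kcnj2 window held 2 E-boxes, at -206 and -84, and 2 GC boxes, at -102 and -51. The Scn4b window held no match to any of the 5 motifs, and neither did those of Scn4a and Kcnn3. Among all 32851 promoters of the same length, 72.3% held an E-box, 3.19% a MEF2 site, 1.63% a CArG box, 13.6% TATAAA and 35.7% a GC box, so a match or its lack is a description of these letters only.

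Of the sodium channel genes, Scn4b fell in psoas against EDL. Scn4b (ENSMUSG00000046480, chromosome 9, 45138395 to 45154152, + strand, GRCm38) encodes the β4 subunit, which associates with the pore subunit and alters how the channel opens and closes. Its normalized counts were 1882, 3742, 4043, 1627 and 2077 in EDL replicates 1 to 5, 38.66, 73.7, 156.6, 355.2 and 751 in psoas replicates 1 to 5, and 297.5, 372.8 and 459.1 in soleus replicates 1 to 3. Every EDL library lay above every library of the other muscles, while soleus lay inside the wide range of psoas. The mean was 275 ± 293 in psoas (SD, n = 5) and 2674 ± 1129 in EDL (SD, n = 5). EdgeR's fit put psoas 9.81-fold lower, a log2 fold change of -3.30 ± 0.65 (SE) with an adjusted p of 0.00521 (edgeR's quasi-likelihood test, Benjamini-Hochberg over 17069 genes). Psoas replicate 5 lay nearest to EDL, and without it the log2 fold change was larger in size, at -4.11 with an adjusted p of 0.00216 (edgeR). In soleus the log2 fold change against EDL was -2.83 ± 0.78 with an adjusted p of 0.0633 in the same fit, short of the limit of 0.01 used throughout. In a bulk muscle sample, fewer fibres or cells that express a gene and less of its RNA in each cannot be told apart.

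Scn4b was also the member with the widest spread inside a muscle, a 19.42-fold range and a coefficient of variation of 107% in psoas. The psoas libraries of code T6 were the highest and that of the youngest mouse, aged 29 days, the lowest. Within codes, the psoas minus EDL difference in log2 CPM (counts over the library's total, on a log scale) was -5.67 in T4, -4.69 in T5 and -1.82 in T6. Those of T4 and T5 each set 1 psoas library against 1 EDL library. Without the 5 T6 libraries the log2 fold change was -5.18 with an adjusted p of 0.00253 in the same edgeR test. Fast fibre markers were likewise lower in every psoas library than in EDL, and psoas replicates 1 and 2 were the lowest of psoas there too, at 154884 and 152359. Per 1000 fast fibre marker counts, a scale chosen after seeing the data, Scn4b stood at 2.12 to 3.04 in EDL, at 0.25, 0.484, 0.637, 0.998 and 2.41 in psoas replicates 1 to 5, and at 2.18 to 3.25 in soleus. On that scale soleus lay with EDL, and 4 of the 5 psoas libraries lay below both. RNA integrity, as the study measured it before sequencing, was in no psoas library higher than the lowest in EDL. What part fibre makeup, age, RNA integrity or the code had in the lower Scn4b count was not tested.

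**Figure D1:**
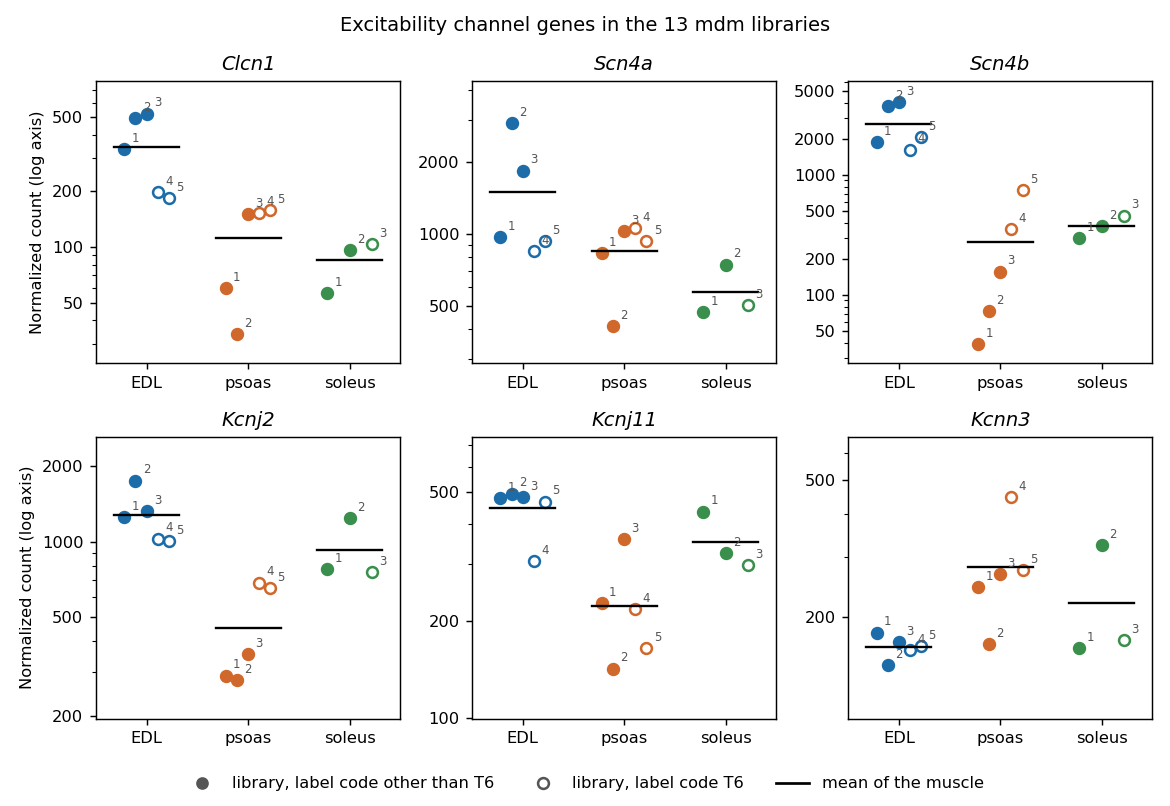
Normalized count (log axis) of each of the 6 channel genes in every library, by muscle; numbers are replicate numbers, open circles are libraries of code T6 and lines are means. Scn4b spans 38.66 to 751 in psoas, all below the lowest EDL library at 1627, and the EDL values of Kcnn3 stay between 144.8 and 180.5.

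The pore that Scn4b serves was less sharply divided. Scn4a (ENSMUSG00000001027, chromosome 11, 106318592 to 106353288, - strand) encodes the α subunit Nav1.4, the main sodium channel of adult muscle fibres. Its normalized counts were 967, 2901, 1836, 845.2 and 933.2 in EDL, 829.6, 411.2, 1027, 1054 and 930 in psoas and 470.9, 743.4 and 502.1 in soleus. Soleus lay below every EDL library, whereas EDL and psoas overlapped, with EDL replicates 2 and 3 far above the other 3. The log2 fold change was -0.83 ± 0.36 in psoas against EDL (adjusted p 0.121, edgeR) and -1.39 ± 0.43 in soleus against EDL (adjusted p 0.106, edgeR), neither past the limit. Within codes the psoas minus EDL difference in log2 CPM was -2.85 in T4, -0.85 in T5 and 0.17 in T6, so its sign turned in T6, and without T6 the log2 fold change was -1.34 with an adjusted p of 0.0969 (edgeR). Per 1000 fast fibre marker counts the order of the muscles was another, with Scn4a at 1.05 to 2.36 in EDL, 2.7 to 5.36 in psoas and 3.37 to 6.47 in soleus, where every psoas and soleus library lay above every EDL library.

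Set against each other per exon length, the 2 subunits differed in proportion between the muscles. The ratio of Scn4b to Scn4a was 2.75, 1.82, 3.11, 2.72 and 3.15 in EDL, 0.0659, 0.253, 0.216, 0.477 and 1.14 in psoas and 0.893, 0.709 and 1.29 in soleus. EDL had more Scn4b than Scn4a in each library, and in psoas that held for replicate 5 only.

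Clcn1 was lower in psoas and soleus than in EDL in every library, yet missed the limit in both comparisons. Clcn1 (ENSMUSG00000029862, chromosome 6, 42286685 to 42315756, + strand) encodes ClC-1, which carries most of the resting chloride conductance of the fibre and whose loss causes myotonia. Its normalized counts were 335.5, 494.4, 523.6, 198.2 and 183.9 in EDL, 59.63, 33.64, 150.2, 152.9 and 158.3 in psoas and 56.28, 95.7 and 103.2 in soleus. The EDL libraries of code T6 were the lowest of their muscle and close to psoas, so the 2 ranges nearly met, and psoas and soleus overlapped. The log2 fold change was -1.66 ± 0.43 in psoas (adjusted p 0.0179) and -2.04 ± 0.53 in soleus (adjusted p 0.05), both against EDL by edgeR's quasi-likelihood test. DESeq2, a second count model, gave adjusted p-values of 0.00121 and 0.00154 for these differences, past the limit.

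Within codes the psoas minus EDL difference of Clcn1 in log2 CPM ran from -3.85 in T4 and -1.80 in T5 to -0.28 in T6, and without T6 the log2 fold change was -2.49 with an adjusted p of 0.0192 (edgeR). Per 1000 fast fibre marker counts the muscles overlapped, at 0.227 to 0.465 in EDL, 0.221 to 0.611 in psoas and 0.412 to 0.833 in soleus. The exons of Clcn1 share 445 bases with Fam131b on the other strand, a gene with at most 48 counts in any library, and the strand setting of the counting is not given in the sources used here.

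Of the inward rectifiers, Kcnj2 fell in psoas against EDL and was intermediate in soleus. Kcnj2 (ENSMUSG00000041695, chromosome 11, 111066164 to 111076821, + strand) encodes Kir2.1, an inward-rectifier potassium channel that steadies the resting potential. Its normalized counts were 1254, 1755, 1324, 1026 and 1001 in EDL, 290.2, 278.8, 354.5, 684.4 and 650.7 in psoas and 773, 1237 and 756.5 in soleus. The 5 psoas libraries were the lowest of all, with the T6 pair above the other 3, and soleus overlapped EDL through its replicate 2. The mean was 452 ± 200 in psoas and 1272 ± 304 in EDL (SD, n = 5 each). The fit put psoas 2.83-fold lower, a log2 fold change of -1.50 ± 0.29 with an adjusted p of 0.00492 (edgeR). Soleus differed from EDL by -0.46 ± 0.34 (adjusted p 0.58, edgeR), and stood above psoas by 1.04 ± 0.32 on the log2 scale with an adjusted p of 0.196.

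Within codes the psoas minus EDL difference of Kcnj2 in log2 CPM was -2.68 in T4, -1.91 in T5 and -0.59 in T6. Without T6 the log2 fold change was -2.23 with an adjusted p of 0.00464, and with the code as a block it was -1.39 with an adjusted p of 0.0137, past the limit no longer (edgeR in both). Per 1000 fast fibre marker counts Kcnj2 did not follow the order of its counts, with 0.759 to 1.74 in EDL, 1.44 to 2.09 in psoas and 5.07 to 10.8 in soleus. The related Kir2.2 gene Kcnj12 stood at 131.8 to 537.2 in EDL, 30.28 to 147.5 in psoas and 65.34 to 157.8 in soleus. Its log2 fold change in psoas against EDL was -1.80 with an adjusted p of 0.0193, and with the replicate number as a block the adjusted p was 0.00268 (edgeR in both). Kcnj2 exceeded Kcnj12 per exon length in every library, by 1.21 to 6.22 times.

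Kcnj11 (ENSMUSG00000096146, chromosome 7, 46093953 to 46100764, - strand) encodes Kir6.2, the pore of the potassium channel that opens when ATP falls. Its normalized counts were 480.3, 495.7, 483.8, 307.1 and 468 in EDL, 226.9, 142.6, 359.1, 217.1 and 165 in psoas and 435.7, 323.5 and 297.4 in soleus. EDL replicate 4 and psoas replicate 3 crossed, and the other psoas libraries lay below all of EDL and soleus. The mean was 222 ± 84 in psoas and 447 ± 79 in EDL (SD, n = 5 each). The edgeR fit put psoas 2.02-fold lower, a log2 fold change of -1.01 ± 0.24 with an adjusted p of 0.0123, just outside the limit. Unlike Clcn1 and Kcnj2, Kcnj11 differed as much within T6 (-0.99 in log2 CPM) as in the whole fit, with -1.82 in T4 and -0.44 in T5. The same-numbered T6 libraries differed by -0.47 (replicates 4) and -1.50 (replicates 5). Without T6 the log2 fold change was -1.01 with an adjusted p of 0.0764 (edgeR). Per 1000 fast fibre marker counts Kcnj11 stood at 0.277 to 0.666 in EDL, 0.53 to 1.46 in psoas and 1.99 to 3.19 in soleus. On that scale psoas overlapped EDL from above, and soleus lay above both. Of the subunits that join Kir6.2, Abcc9 (SUR2) stood at 2181 to 5835 in EDL, 1557 to 2719 in psoas and 1300 to 1790 in soleus, and Abcc8 (SUR1) at 32.33 to 88.68 over all libraries. Per exon length Abcc9 exceeded Kcnj11 by 1.77 to 5.53 times in all libraries, and Abcc8 reached 0.0488 to 0.131 of it.

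Kcnn3 alone of the 6 had a higher mean in psoas than in EDL. Kcnn3 (ENSMUSG00000000794, chromosome 3, 89520164 to 89675132, + strand) encodes SK3, a small-conductance potassium channel that calcium opens and that is known from immature and denervated fibres. Its normalized counts were 180.5, 144.8, 169.2, 160.1 and 165 in EDL, 244.6, 167.1, 267.5, 447.3 and 274.4 in psoas and 162.6, 324.2 and 171.9 in soleus. EDL was tight, with a coefficient of variation of 7.98%, while psoas replicate 4 and soleus replicate 2 stood above the rest of their muscles and psoas replicate 2 lay inside the EDL range. The log2 fold change of 0.77 ± 0.26 in psoas against EDL had an adjusted p of 0.0492 (edgeR), and its size of 1.71-fold was also under the limit of 2-fold. Within codes it was 0.17 in T4, 0.65 in T5 and 1.11 in T6 in log2 CPM, largest in T6, where the differences of Scn4b and Kcnj2 were smallest, and without T6 the log2 fold change was 0.46 with an adjusted p of 0.37 (edgeR).

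Against Clcn1, the ratio of Kcnn3 per exon length was 0.279, 0.152, 0.168, 0.419 and 0.466 in EDL, 2.13, 2.58, 0.925, 1.52 and 0.9 in psoas and 1.5, 1.76 and 0.866 in soleus. EDL thus had the lower ratio in every library, and psoas and soleus overlapped. No test was run on the ratios of members.

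Counted together, 2 of the 6 members fell in psoas against EDL and none rose, where 2.5% of the 17069 genes tested fell, 2.43% rose and 4.93% were past the limits in either direction. With the replicate number as a block, 2 members were past the limits as well, while the number of all genes past them went from 841 to 1267. In 3 members (Clcn1, Scn4b and Kcnj2) no psoas library reached any EDL library, a state that 6.56% of all genes showed in that direction. All 6 had an unadjusted p under 0.05, as 33.3% of all genes did, and DESeq2 put Clcn1, Scn4b, Kcnj2 and Kcnj11 past the limits, lower in psoas, where it put 4.53% of all genes. The 6 members had a median log2 fold change of -1.26, against 0.02 over all genes tested. Calls at this limit rested on single libraries: without EDL replicate 3 or without psoas replicate 2, 0 of the 6 passed by edgeR, with adjusted p-values of 0.0144 and 0.0121 for Scn4b and 0.0135 and 0.0131 for Kcnj2. Calls over all genes fell too, from 841 to 317 and 365 in these refits, so the loss was not particular to the members. With each library left out in turn, 317 to 802 genes passed. Kcnj2 missed the limit without EDL replicate 2 (adjusted p 0.0104) or psoas replicate 1 (0.0113), and Scn4b without psoas replicate 4 (0.0102, edgeR in all). Without psoas replicate 3 both missed it, with 0.0123 for Scn4b and 0.0115 for Kcnj2, and Kcnj11 passed with 0.00434.

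In soleus against EDL, 0 of the 6 members passed the limits in edgeR's test, where 0.978% of all genes did. By an unadjusted p under 0.05, 3 members (Clcn1, Scn4a and Scn4b) differed, beside 15.1% of all genes, and DESeq2 put 2 of these, Clcn1 and Scn4b, past the limits, beside 2.13% of all genes that it put lower. These 3 members had no soleus library as high as any EDL library, beside 5.72% of all genes in that direction. The median log2 fold change was -0.92 for the members and -0.03 for all genes. Without T6 the log2 fold changes of these 3 were -2.57 for Clcn1 (adjusted p 0.0584), -1.65 for Scn4a (0.176) and -3.27 for Scn4b (0.0261, edgeR in all). Adipocyte markers, higher in every soleus library than in EDL, and fast fibre markers, lower in every soleus library, moved with this comparison, and their part in it was not tested.

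Between soleus and psoas, 0 of the 6 passed in edgeR's test, where 0.0762% of all genes did. Kcnj2 and Kcnj11 had an unadjusted p under 0.05 (0.00601 and 0.0267), beside 12.7% of all genes, and DESeq2 put 0 members and 1% of all genes past the limits. Kcnj2 was the single member without overlap, higher in soleus, as were 4.97% of all genes. The 95% interval of the log2 difference, a normal interval from its SE, was 0.41 to 1.68 for Kcnj2 and 0.14 to 1.21 for Kcnj11, while those of Clcn1 (-1.36 to 0.60), Scn4a (-1.38 to 0.26), Scn4b (-0.88 to 1.80) and Kcnn3 (-0.92 to 0.24) held 0. For Scn4b the log2 difference depended on the fit. It was 1.92 without T6 (adjusted p 0.26) and 2.23 with the replicate number as a block (0.0539, edgeR in both), outside its interval but not past the limit. Within codes it was 2.17 in T4, with 1 psoas library, and -0.17 in T6, with 1 soleus library, in log2 CPM. The comparisons share libraries, since each muscle serves in 2 of them.

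**Figure D2:**
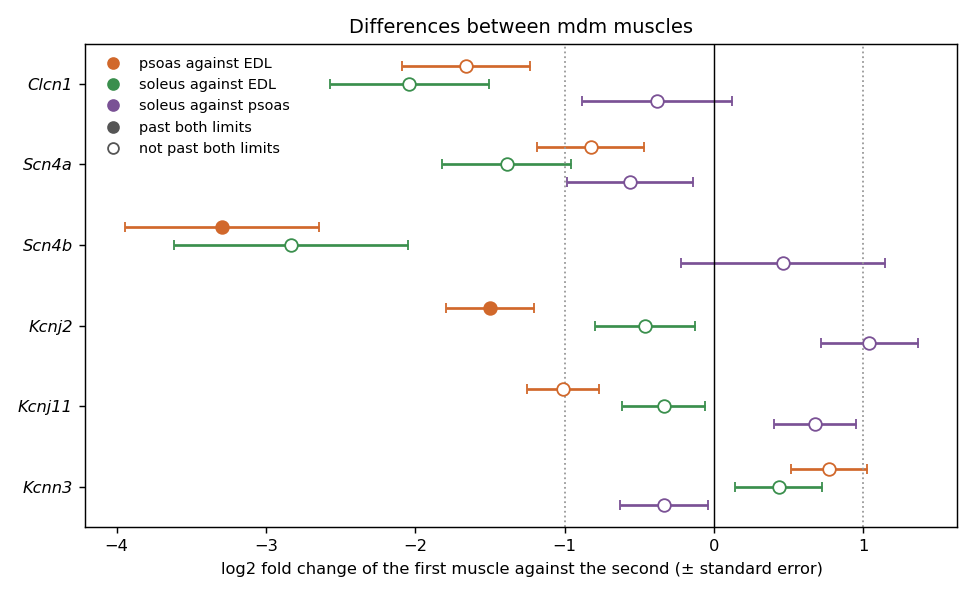
Log2 fold change of the 6 genes between the mdm muscles with its standard error (edgeR); filled points are past both limits and dotted lines mark a log2 fold change of -1 and 1. Only Scn4b (-3.30) and Kcnj2 (-1.50) in psoas against EDL are filled.

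**Figure D3:**
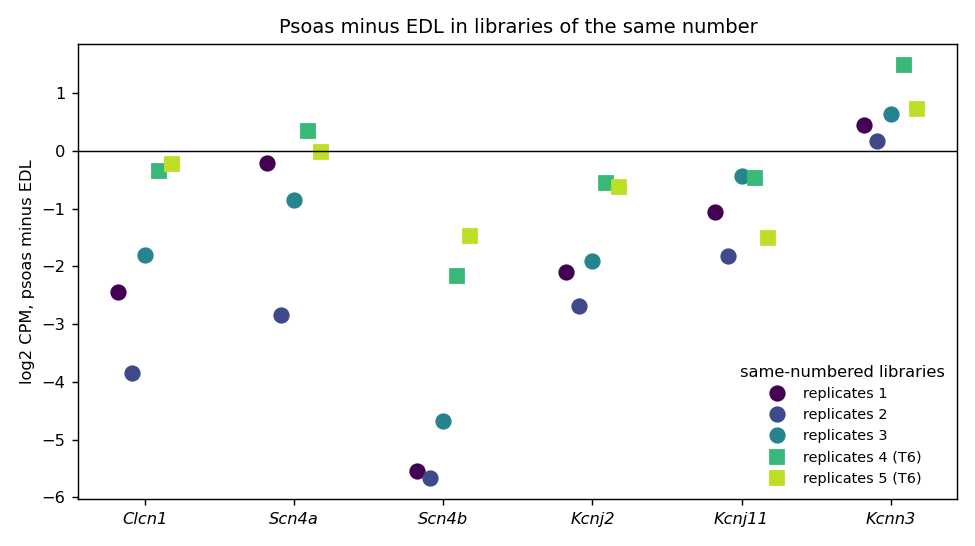
Psoas minus EDL difference in log2 CPM for libraries of the same replicate number, squares being code T6. For Scn4b the T6 squares lie at -2.17 and -1.47 and the circles from -5.67 to -4.69, and for Clcn1 and Kcnj2 the squares also lie nearest to 0.

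Ordered by level per kb of exon, Scn4b led in EDL with 537 ± 227 normalized counts per kb (SD, n = 5), followed by Kcnj2 (234 ± 56), Scn4a (212 ± 125), Kcnj11 (122 ± 21), Clcn1 (64 ± 29) and Kcnn3 (15.7 ± 1.3). In psoas Scn4a led with 121 ± 37, ahead of Kcnj2 (83 ± 37), Kcnj11 (60 ± 23), Scn4b (55 ± 59), Kcnn3 (26.8 ± 9.8) and Clcn1 (20 ± 11). Kcnj2 led in soleus with 169 ± 50 (SD, n = 3), and Kcnj11 (96 ± 20), Scn4a (81 ± 21), Scn4b (76 ± 16), Kcnn3 (21.01 ± 8.68) and Clcn1 (15.7 ± 4.6) followed. Scn4b thus went from the first place in EDL to the fourth in the other muscles. Neighbours in these orders overlapped in their libraries, except Scn4b with Kcnj2 and Clcn1 with Kcnn3 in EDL and Kcnj2 with Kcnj11 and Scn4b with Kcnn3 in soleus.

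**Figure D4:**
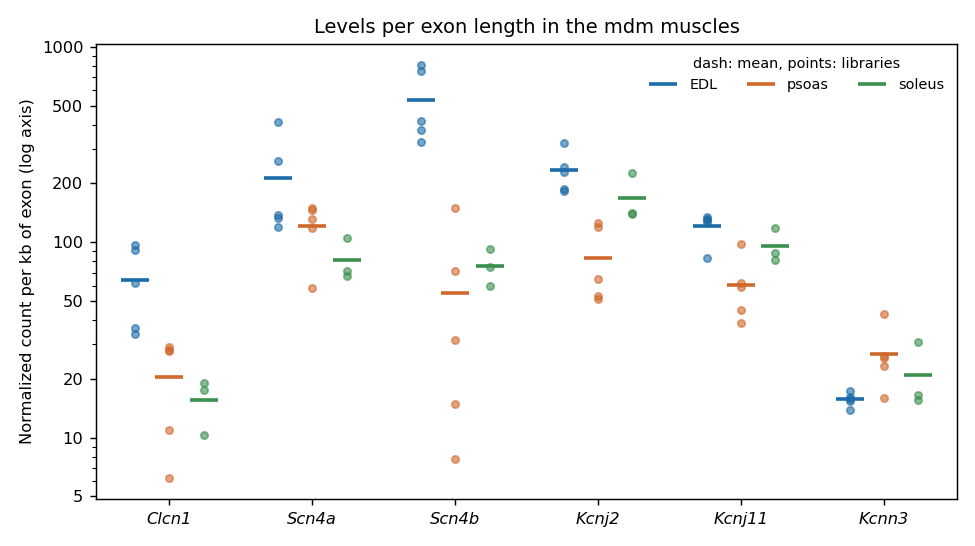
Normalized count per kb of exon (log axis) of the 6 genes in each library (points), with the mean of each muscle (dash). Scn4b has the highest mean in EDL (537), Scn4a in psoas (121) and Kcnj2 in soleus (169).

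Across the 13 libraries the genes with a pattern most like each member were named by Pearson's r of log2 CPM, as a description; the libraries share muscles and depth, and r after subtracting the muscle means follows in brackets. Scn4b was most like Rpl3l (0.986, [0.966]), a ribosomal protein gene of striated muscle, Coq10a (0.983, [0.936]) and Gm8424 (0.982, [0.970]), and 230 genes had an r over 0.9 with it. Clcn1 was most like Rtn2 (0.960, [0.902]), Uckl1os (0.950, [0.917]) and Tpd52l1 (0.937, [0.837]). Scn4a was most like Cmya5 (0.932, [0.922]), Neb, the gene of the giant thin filament protein nebulin (0.927, [0.906]), and Ppm1l (0.913, [0.842]).

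Kcnj2 was nearest to Perm1 (0.958, [0.852]), a regulator of muscle oxidative genes, Ppp1r3c (0.952, [0.822]) and Tuba8 (0.947, [0.809]). Kcnj11 was nearest to Klhl41 (0.950, [0.874]), Nemf (0.942, [0.832]) and Fxyd1 (0.940, [0.849]), the last being the pump regulator phospholemman. For Kcnn3 no gene passed 0.9, and the nearest were Virma (0.863, [0.751]), Tgfb2 (0.855, [0.756]) and Clasp1 (0.843, [0.722]). Among the members, Scn4b and Kcnj2 went together most closely (0.899, [0.819]), then Clcn1 with Scn4b (0.878, [0.769]) and with Scn4a (0.867, [0.815]).

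Other genes of membrane excitability were taken from 7 lists of channel, pump and anchor genes, 91 genes of which 63 were tested. In psoas against EDL 3 of them rose and 6 fell by edgeR's test, 14.3% of the 63 beside 4.93% of all genes. Their median log2 fold change was 0.20, so the lists did not share the lower median of the 6 members. Without the T6 libraries 1 of the 63, Kcng4, passed. The number was 2 without EDL replicate 3, 3 without EDL replicate 5, and 5 without EDL replicate 2, psoas replicate 1 or psoas replicate 2. Over all genes the number past the limits fell as well, from 841 to 183 without T6. In the left-out refits just named it was 317, 426, 687, 447 and 365, in that order. In soleus against EDL 1 rose and 1 fell by edgeR, 3.17% of the 63 beside 0.978% of all genes. Between soleus and psoas 0 passed by edgeR and 3 by DESeq2, beside 0.0762% and 1% of all genes. There 15 had an unadjusted p under 0.05 (edgeR), beside 12.7% of all genes.

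Of the 9 genes past the limits in psoas against EDL, 4 encode potassium channels. The voltage-gated Kcna7 ranged over 849.4 to 1740 in EDL and 57.14 to 407.8 in psoas, where it fell (log2 fold change -2.51, adjusted p 0.00403, edgeR). Kcng4, a modifying subunit, fell as well, with 77.07 to 485.8 in EDL and 2.136 to 51.39 in psoas (-3.97, adjusted p 0.00429, edgeR), and without psoas replicate 5 its log2 fold change was -4.97. Kcnc4, a Kv3 channel, was past the limits in soleus instead, with 15.31 to 22.35 against 115.4 to 262.8 in EDL (-3.26, adjusted p 0.00425, edgeR). Kcnn1, which like Kcnn3 encodes a small-conductance channel, fell in psoas (-1.32, adjusted p 0.00288, edgeR), the sign opposite to that of Kcnn3. Kcna1, an axonal channel, rose in psoas (2.27, adjusted p 0.00823, edgeR), where its highest library, replicate 1 with 1072, was also the highest for Schwann cell and axon markers with 18661. Without that library the log2 fold change of Kcna1 was 1.59 with an adjusted p of 0.0155 (edgeR). The part of nerve in the Kcna1 count was not tested.

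The remaining lists are short, and their shares past the limits in psoas against EDL were of a like size (edgeR). They were 14.3% of 7 sodium channel genes, 16.7% of 6 chloride channel and transporter genes, 8.33% of 12 pump genes and 25% of 8 anchors. Voltage-gated potassium channels had 15.8% of 19, and all genes 4.93%. Clcn5, of the same family as Clcn1 but an endosomal exchanger, rose in psoas (1.11, adjusted p 0.00939, edgeR). Of the inward rectifiers and KATP subunits 0 of 6 tested passed by edgeR in psoas against EDL, beside 4.93% of all genes. By an unadjusted p under 0.05, 3 differed, beside 33.3% of all genes, and DESeq2 put Kcnj12 past the limits. The most abundant were Abcc9 and Kcnj8, the latter at 125 to 325.1 in all libraries. In the list of sodium-potassium pump genes, Fxyd1 fell in psoas (-1.19, adjusted p 0.00634, edgeR) and the muscle-specific Atp1b4 rose in soleus (1.52, adjusted p 0.00544, edgeR). Atp1b4 is listed by its gene family, and whether it serves the pump in these muscles was not tested. The Atp1b4 call held in 8 of 13 fits with a library left out and was lost without EDL replicate 1, 2 or 3 or soleus replicate 1 or 2, without T6 (adjusted p 0.013) and with the code as a block (0.0313, edgeR in all). With the replicate number as a block it was lost as well (adjusted p 0.0267, edgeR). Of the anchors, Sntb1, which encodes a syntrophin, rose in psoas (1.27, adjusted p 0.00122, edgeR). With each library left out in turn, the edgeR call held in 13 of 13 fits for Kcnn1 and Sntb1, 12 for Kcna7, 10 for Kcng4 and Kcnc4, 6 for Fxyd1, 4 for Kcna1 and 3 for Clcn5.

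A further list held 10 genes known to respond to loss of the nerve, and 3 of the 10 rose in psoas against EDL, where 2.43% of all genes rose, with 0 fallen and a median log2 fold change of 0.95. They were Chrnd (1.25, adjusted p 0.00585, edgeR), Chrng (1.32, adjusted p 0.00943, edgeR), which encode acetylcholine receptor subunits, and the transcription factor Runx1 (1.39, adjusted p 0.00819, edgeR). With the replicate number as a block Chrng missed the limit (adjusted p 0.0115), and without T6 all 3 did, with adjusted p-values of 0.0607 for Chrnd, 0.0876 for Chrng and 0.0365 for Runx1. Leaving out each library, the call held in 5 of 13 fits for Chrnd and in 3 of 13 for Runx1 and for Chrng, with adjusted p-values of at most 0.0181, 0.0242 and 0.0263, all 3 of these without EDL replicate 3 (edgeR). Immature fibre markers, a list that also holds Chrng, summed to 72295 to 147816 in psoas and 40083 to 69385 in EDL. In soleus against EDL and against psoas 0 of the 10 passed by edgeR or DESeq2. At an unadjusted p under 0.05 there were 0 and 4, beside 15.1% and 12.7% of all genes.

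**Figure D5:**
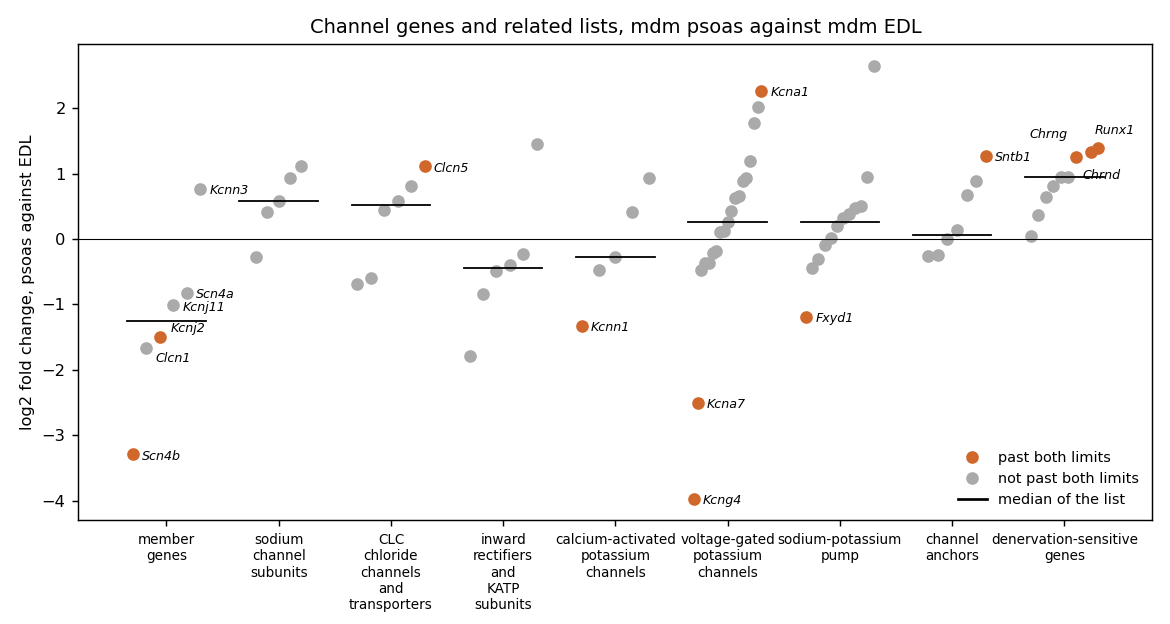
Log2 fold change in psoas against EDL of the 6 channel genes and of each list of related genes; each point is a gene, genes not reported here are not drawn, orange points are past both limits and lines are medians of all genes tested in a list. The median of the 6 members lies at -1.26 and that of the denervation-sensitive list at 0.95.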

How the data were processed

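RNA of 13 mdm muscles was sequenced from stranded total RNA libraries, per the labels. The authors aligned the reads to GRCm38.p4 and counted them per gene, and the submitters' processing notes name Trimmomatic 0.32 and TopHat2 2.1.1; the strand setting of the counting is not given in the sources used here. The deposited counts are whole numbers. The deposited normalized signal is the count divided by 1 size factor per library, computed by the authors also with libraries not analysed here (checked: largest relative deviation 5.22e-15).

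The 6 members and all lists were chosen with earlier results of these data known. A gene was tested if 3 or more libraries had a normalized count of 10 or more, and the 17069 such genes entered 1 quasi-likelihood fit of edgeR 4.0.16 in R 4.3.3, with TMM normalization and muscle as the only factor. A gene was past the limits when its Benjamini-Hochberg adjusted p was below 0.01 and its log2 fold change exceeded 1 in size. The sequencing run, a term of the study's own model, is not in the labels and was left out. Standard errors were taken as the log2 fold change over the root of F. Log2 CPM has a prior count of 2. DESeq2 1.42.0 and limma 3.58.1 served as alternatives, beside other scalings, filters, blocks and left-out libraries. On simulated data for psoas against EDL (17069 genes, 200 changed) edgeR recovered 99% of 4-fold and 100% of 8-fold changes. The simulation gave all genes the same spread, held no label codes and changed only genes with higher counts. It checks the fit and does not give its power for the members, whose coefficient of variation reached 107% (Scn4b in psoas). Exon lengths and coordinates came from GENCODE mouse release 21.

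Members had 60 to 5866 counts per library, a counting error of 12.9% at the lowest, and intervals cover the spread between libraries. Whether libraries share a mouse is not known, so p-values measure the spread between these samples. Deviations of same-numbered EDL and psoas libraries from their muscle means correlated by 0.407, 0.370, 0.316, 0.289 and 0.371, all over 0.1. The replicate number therefore served as a block in an alternative fit, while the main fit held no block. Replicates 1, with the highest of these (0.407), differ in age and do not share a mouse. EDL and psoas replicates 2 to 5 share their code. These correlations thus do not show which libraries share a mouse. Named related genes were those past the limits in any comparison, at most 4 per list by adjusted p, or else the 2 most abundant; some of them are not reported here. Kcnj12 and Abcc8 were added as partners of members after their values were seen.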

Additional observations from a re-analysis of the deposited data

Results flagged for a closer look

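In 4 of 44 groups of 5 libraries, each a named gene in EDL or psoas, a single library lay far from the rest by Dixon's criterion, and chance gives about 1 in 20 such groups. Among the members this was Kcnj11 in EDL, where replicate 4 had a normalized count of 307.1 against 468 to 495.7 in the other 4. Without that library the log2 fold change in psoas against EDL had an adjusted p of 0.00862 in edgeR's test and passed the limit. Among the related genes, Kcna1 stood at 1072 in psoas replicate 1 against 181.5 to 311.9, Runx1 at 1871 in psoas replicate 3 against 1043 to 1228, and Chrng at 137.9 in psoas replicate 1 against 275 to 329.7.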

How the results depend on the processing

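The members kept their direction against EDL in all refits, while within code T6 alone Scn4a turned (0.17 in log2 CPM, psoas minus EDL). Of 414 refitted log2 fold changes of members 391 kept both their sign and their side of the limits. Of the others 2 turned sign, 10 came to pass the limits and 11 no longer passed them. In psoas against EDL the number of members past the limits (2) was 4 with DESeq2, 1 with only the 2 muscles compared or with the label code as a block, 2 without code T6 (an alternative chosen after seeing the data) and 0 to 3 with each library left out. Scn4b missed the limit with only the 2 muscles (adjusted p 0.0108, edgeR). The related genes past the limits (9) were 14 with DESeq2, 1 without T6 and 2 to 9 with each library left out. In soleus against EDL the members (0) were 2 with DESeq2, 1 with only the 2 muscles and 0 to 0 with a library left out. With the replicate block they were also 2, where Clcn1 (adjusted p 0.0029, edgeR) and Scn4b (0.00296) passed. Same-numbered soleus and EDL mice differ in age, so that block joins libraries of different mice. The related genes (2) were 7 with DESeq2, 0 without T6 and 0 to 3 with a library left out, 0 without soleus replicate 1 or 2. Between soleus and psoas the members were 0 to 0, and the related genes (0) were 3 with DESeq2 and 0 to 1 with a library left out. The cause of these shifts was not tested.

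Same-numbered soleus libraries differ in age from those of the other muscles (correlations of -0.162 to 0.421 with EDL and -0.302 to 0.159 with psoas). Soleus replicate 3 has the code T6 and the age of 38 days of EDL and psoas replicates 4 and 5, and may share a mouse with some of them. The replicate block changed no other member's call; it turned Clcn1 in soleus against psoas to 0.23 and Kcng4 to 0.36, neither past the limit. Without T6 Kcnn3 (0.11) and Kcnj8 (-0.005) turned sign there. In soleus against EDL Clcn5 turned to 0.023 with the code as a block and ran from -0.243 to 0.026 with each library left out (above 0 without EDL replicate 1 or soleus replicate 1), Kcnj8 to 0.123 with the code as a block and ran from -0.191 to 0.203 with a library left out (above 0 without EDL replicate 1 or 5 or soleus replicate 2), and Chrnd ran from -0.186 (without soleus replicate 2) to 0.533. With the longest transcript as length, Clcn1 stood at 97.92 per kb in EDL and 23.99 in soleus, and Kcnn3 at 19.72 in EDL. Over all genes, the number past the limits (841, 167 and 13) was 1586, 633 and 171 with DESeq2 and 183, 63 and 0 without T6, and in psoas against EDL 557 with only the 2 muscles. With each library left out it ran from 317 to 802 in psoas against EDL, 19 to 182 in soleus against EDL and 3 to 21 in soleus against psoas. Depth limits Clcn1 most.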
